A study of Homo sapiens with 18 samples.

Results

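The amino acid transporters described here are the genes of 7 solute carrier (SLC) families, chosen by name: every gene whose only symbol in the array's annotation begins with SLC1A, SLC3A, SLC6A, SLC7A, SLC36A, SLC38A or SLC43A and a digit. The rule gave 57 of the 16241 genes measured, with 7 genes of SLC1, 1 of SLC3, 18 of SLC6, 14 of SLC7, 4 of SLC36, 10 of SLC38 and 3 of SLC43, and all 57 had at least 6 probe sets. They were measured in 3 human myeloid cancer lines grown in the same serum-supplemented medium: HL60, a promyelocytic leukaemia line, THP-1, a monocytic leukaemia line, and U937, a histiocytic lymphoma line of monocyte-like cells. Cells of each line received the phorbol ester phorbol 12-myristate 13-acetate (PMA) at 30 nM, or the vehicle dimethyl sulfoxide (DMSO) diluted 1000 fold, and RNA was taken after 3 days. PMA activates protein kinase C and turns such lines into adherent, macrophage-like cells. The 18 human exon arrays form 6 groups of 3. Each line descends from a single patient's cancer, and the labels do not say whether the numbered arrays of a group are separate cultures, so p-values here reflect the spread among these arrays alone.

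A cell takes up and exchanges amino acids through carriers that divide the work. SLC1 and SLC6 carriers use the sodium gradient to concentrate glutamate, small neutral amino acids, taurine, betaine and neurotransmitters, and SLC38 carriers use it for glutamine and its relatives. SLC7 holds the cationic amino acid transporters and the light chains of heteromeric exchangers, which reach the surface only when bound to a heavy chain of the SLC3 family. Some SLC36 carriers are coupled to protons and several sit on lysosomes, and SLC43 carriers pass large neutral amino acids without ion coupling. In macrophages, arginine and cystine carriers are known to feed nitric oxide and glutathione synthesis, and glutamine and leucine carriers feed growth and mTORC1, the kinase complex that reads amino acid supply.

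A few members are in the set by name and not by substrate. SLC6A2, SLC6A3 and SLC6A4 carry monoamines, SLC6A8 carries creatine and SLC43A3 carries purine bases. SLC7A6OS is a neighbour of SLC7A6 named for its opposite strand and is not a carrier. SLC6A10P is a pseudogene of SLC6A8: 28 further probe sets carry both symbols and were left out, and signal could pass between the pair in the rest, so both values are uncertain. The heavy chain SLC3A2 is not a member, because each of its 20 probe sets carries a second symbol.

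The promoter sequences of the members called in all 3 lines are shown first, to set side by side the genes that responded in every line. SLC7A7 and SLC7A8 were higher and SLC7A1 lower with PMA in all of them, and SLC36A1 was lower in HL60 and higher in the other two. Promoter windows from RefSeq (GRCh38.p14) were found for 42 of the 57 members, and the 250 bases before the start site are given 5′ to 3′ on the gene's strand. Where a gene had several start sites, the window with the most motif matches was taken, leaving out windows less than 1000 bases downstream of another start of that gene. Capitals mark matches to the E-box CACGTG, the letters read by MYC and the TFEB family. SLC36A1 is shown at chr5:151447353-151447602 (plus strand), SLC7A1 at chr13:29595689-29595938 (minus), SLC7A7 at chr14:22815872-22816121 (minus) and SLC7A8 at chr14:23183661-23183910 (minus).
SLC36A1: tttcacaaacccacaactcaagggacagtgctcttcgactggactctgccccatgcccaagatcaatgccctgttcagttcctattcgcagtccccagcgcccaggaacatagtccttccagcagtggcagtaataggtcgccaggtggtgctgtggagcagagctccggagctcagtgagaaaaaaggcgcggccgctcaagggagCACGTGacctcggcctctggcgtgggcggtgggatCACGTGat
SLC7A1: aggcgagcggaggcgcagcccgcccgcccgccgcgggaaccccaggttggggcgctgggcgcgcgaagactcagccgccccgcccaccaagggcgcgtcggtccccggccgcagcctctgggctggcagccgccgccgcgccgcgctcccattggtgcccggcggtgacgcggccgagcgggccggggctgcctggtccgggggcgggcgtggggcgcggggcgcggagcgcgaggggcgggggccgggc
SLC7A7: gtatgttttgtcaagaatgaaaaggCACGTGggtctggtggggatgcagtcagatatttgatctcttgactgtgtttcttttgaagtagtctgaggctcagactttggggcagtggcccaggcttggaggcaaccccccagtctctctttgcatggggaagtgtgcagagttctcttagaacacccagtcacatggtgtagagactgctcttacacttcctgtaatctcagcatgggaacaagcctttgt
SLC7A8: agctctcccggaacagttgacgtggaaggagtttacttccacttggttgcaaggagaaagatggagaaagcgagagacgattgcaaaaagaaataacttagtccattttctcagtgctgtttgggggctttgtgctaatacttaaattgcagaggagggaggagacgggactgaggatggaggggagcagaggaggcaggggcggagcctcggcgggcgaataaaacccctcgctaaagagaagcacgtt
The SLC36A1 window holds 2 E-boxes, 43 and 8 bases before the start, the SLC7A7 window holds 1, 225 bases before it, and the other windows shown hold none.

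A second set shows members called in 2 lines that hold the letters TGANTCA within 100 bases of a start, by the same window rule. These letters take in the AP-1 site TGAGTCA, or TGACTCA, known as the phorbol ester response element, and also TGAATCA and TGATTCA. SLC38A1 is at chr12:46266517-46266616 (minus strand) and SLC43A2 at chr17:1605035-1605134 (minus), with the match in capitals 57 and 34 bases before the start.
SLC38A1: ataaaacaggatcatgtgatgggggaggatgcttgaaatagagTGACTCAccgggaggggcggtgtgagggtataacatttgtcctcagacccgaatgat
SLC43A2: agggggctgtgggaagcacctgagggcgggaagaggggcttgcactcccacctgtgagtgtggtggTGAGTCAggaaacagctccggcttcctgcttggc
On either strand, TGANTCA was present in 8 of the 62 member windows of 250 bases (12.9%) and in 6.57% of 35116 windows of all genes. CACGTG was present in 9 of 62 (14.5%) against 6.35%, and the ATF4 and C/EBP letters TGATGNAAN in 2 of 62 (3.23%) against 3.13%. These counts include windows left out above by the distance rule. Among them are CACGTG 129 bases and TGANTCA, in the form TGATTCA, 134 bases before 2 other SLC7A8 starts. TGANTCA also lies 26 bases before a start of SLC1A3 and 40 bases before one of SLC36A4, both called in 2 lines. A gene can have several windows, a match is only a run of letters, and no match says nothing about the factor.

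Gene values are means of log2 probe-set values, so a change of 1 unit is a 2 fold change on the array scale, and levels of different genes are not compared. Array medians ran from 6.18 to 6.95 and correlations within groups from 0.931 to 0.978. The lowest median, 6.18, was that of the U937 PMA array numbered 2. That array held 83228 distinct probe-set values, where every other array held between 214471 and 220516. It enters each U937 PMA mean and the spread used in the fit, and the cause of its low number of distinct values was not tested. The U937 arrays numbered 2 stood apart: in most members the PMA array numbered 2 was the lowest of its group. Arrays of 1 line shared 39 to 116 exactly equal probe-set values, with these arrays left aside, against at most 7 between lines and at most 5 for the U937 arrays numbered 2 with any array. Of 14 myeloid markers such as SPI1 and LYZ, 13 or 14 lay above the expression threshold in every group, while 4 or 5 of 12 T and NK cell markers did. Also above the threshold lay 4 or 5 of 6 B cell, 5 or 6 of 9 epithelial and fibroblast, and 2 to 4 of 6 brain and kidney markers. Among 9 erythroid and megakaryocyte markers, 3 or 4 lay above it with DMSO and 6 with PMA. PPBP crossed it in every line, ITGB3 in HL60 and THP-1 and not in U937, and the haemoglobin gene HBB stayed below it in all 6 groups. The mean of these 9 markers ran from 5.12 to 5.28 over the HL60 DMSO arrays and from 5.71 to 5.83 over the HL60 PMA arrays, and from 4.80 to 5.02 and from 5.47 to 5.72 in THP-1. The mean of 6 B cell markers ran from 4.93 to 5.00 and then from 5.34 to 5.53 in HL60, and from 4.87 to 4.96 and then from 5.56 to 5.72 in THP-1. In THP-1, CD22 went from 4.26 to 8.06, while 1 of the 6 was called and their median change was 0.07. In HL60, 2 of the 6 were called, with a median change of 0.34. The mean of 6 brain and kidney markers ran from 4.84 to 5.03 and then from 5.58 to 5.62 in HL60. In THP-1 the latter ran from 4.72 to 4.83 and then from 4.94 to 5.11. In this list 1 of 6 was called in HL60 and 1 in THP-1, with median changes of 0.20 and 0.22. ENO2 went from 4.69 to 7.82 in HL60. In U937 the erythroid and megakaryocyte mean ran from 5.14 to 5.39 and then from 5.46 to 6.17, and the DMSO and PMA ranges of the other two lists overlapped. The T and NK cell mean ran from 4.80 to 4.96 and then from 5.08 to 5.17 in HL60. The epithelial and fibroblast mean there ran from 5.14 to 5.25 and then from 5.28 to 5.36. In THP-1 and U937 the DMSO and PMA ranges of both these means overlapped. The mean of the 14 myeloid markers ran from 8.77 to 8.88 and then from 8.72 to 8.92 in HL60. In THP-1 it ran from 8.10 to 8.18 and then from 9.05 to 9.24. In U937 it ran from 7.37 to 7.65 and then from 8.31 to 8.97. Of the 14, 5 rose and 5 fell in HL60, 7 and 4 in THP-1, and 8 and 1 in U937. Of all genes, 23%, 22.6% and 22% were called. LYZ went from 12.74 to 11.04 in HL60, 11.23 to 9.10 in THP-1 and 11.77 to 12.09 in U937. The part of these markers in the results was not tested. In these bulk samples, a change in the share of cells and a change in RNA per cell cannot be told apart.

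With PMA, SLC7A8 and SLC7A7, light chains of neutral and of cationic and neutral amino acid exchangers, rose in all 3 lines by 2.00 to 4.13 log2 units, and SLC7A1, the main cationic amino acid transporter of proliferating cells, fell in all 3 by 1.12 to 1.50. SLC36A1 was the remaining member called in all 3 lines, lower in HL60 and higher in THP-1 and U937. A member was called at a limma p under 0.05 after Benjamini-Hochberg adjustment over all 16241 genes. In HL60, 12 members rose, 7 fell and 38 did not pass, so that 33.3% were called, against 23% of all genes (12.3% higher and 10.7% lower). In THP-1, 7 rose, 6 fell and 44 did not pass (22.8%, against 22.6% of all genes, 9.38% higher and 13.2% lower). In U937, 8 rose, 7 fell and 42 did not pass (26.3%, against 22% of all genes, 5.5% higher and 16.5% lower). The median change over the members was 0.17, 0.11 and 0.07 in HL60, THP-1 and U937, and over all genes 0.13, 0.04 and -0.07.

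The shares called in THP-1 and U937 were near those of all genes. Over the 3 lines, 25 members were called in at least 1 and 32 in none, where 39.4% of all genes were called in at least 1. Of the 25, 7 were called in 1 line, 14 in 2 and 4 in all 3. The shares of all genes called in exactly 1 line, exactly 2 or all 3 in any direction were not computed. These 3 counts are therefore given without a background. Called higher in all 3 lines were 2 members and 2.66% of all genes. Called lower in all 3 were 1 member and 5.94% of all genes. In every called case but SLC7A5 in U937, the 3 PMA arrays lay wholly to one side of the 3 DMSO arrays, as 22.8%, 22% and 20.8% of all genes did while also being called. Quantile normalization moved the split in THP-1 to 12 higher and 6 lower and in U937 to 12 and 6. Over all genes it moved the shares to 16.1% higher and 16.1% lower in THP-1 and to 13.2% and 14.2% in U937, and the median in U937 from -0.07 to 0.12. Without both U937 arrays numbered 2, 8 members rose and 6 fell in U937, where 8.1% and 10.2% of all genes did. The median over all genes in U937 was then 0.07. In HL60 that setting gave 17 members higher and 7 lower, where 17.8% and 12.6% of all genes were called.

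**Figure D1:**
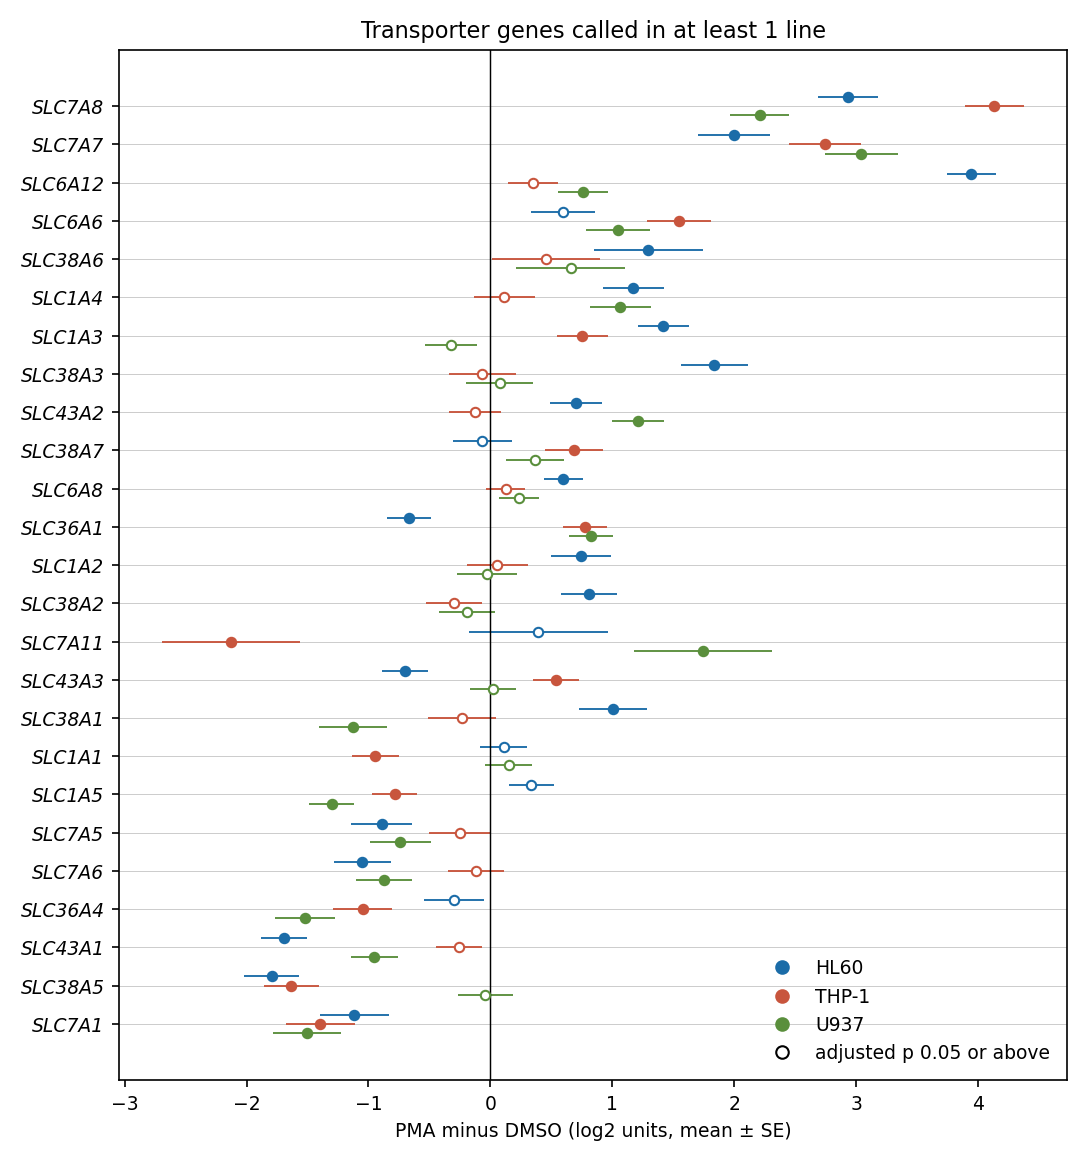
PMA minus DMSO in log2 units (horizontal axis) for the 25 transporter genes called in at least 1 line (rows, ordered by their mean over lines). Points are differences of group means of 3 arrays, bars are the SE of the fit, and filled points have an adjusted p under 0.05. SLC7A8 and SLC7A7 are filled on the right in all 3 lines and SLC7A1 on the left, while SLC36A1, SLC38A1, SLC43A3 and SLC7A11 have filled points on both sides.

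A member was counted as expressed in a group when its mean lay above 5.17, the 30th percentile of all probe sets. By this measure 31 members were expressed in all 6 groups, 17 were silent in all 6, and 9 passed the threshold in some groups. The number expressed was 37 with DMSO and 39 with PMA in HL60, 34 and 36 in THP-1, and 37 and 37 in U937. Of all genes, 69.5% and 72.0% lay above the threshold in HL60, 70.0% and 71.2% in THP-1, and 72.5% and 71.4% in U937. Some markers of other cell types also passed this cut, so a value above it does not by itself show that a member is active. Among members expressed in both groups of a line, 9 rose and 7 fell of 37 in HL60, 6 rose and 5 fell of 32 in THP-1, and 8 rose and 7 fell of 37 in U937. Of all genes above the threshold in both groups, 26.3%, 25.7% and 26.9% were called. Members that crossed the threshold upwards and were called were SLC7A7 and SLC38A3 in HL60 and SLC7A8 in THP-1, and SLC1A1 crossed it downwards in THP-1.

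The 17 silent members were SLC1A2, SLC36A2, SLC36A3, SLC38A4, SLC38A11, SLC3A1, SLC6A2, SLC6A4, SLC6A5, SLC6A13, SLC6A14, SLC6A15, SLC6A16, SLC7A3, SLC7A9, SLC7A13 and SLC7A14. They include carriers known from brain, kidney and gut, among them SLC3A1 and SLC7A9, which together form the kidney cystine exchanger. They did not pass the test in any line, with 1 exception. This was the brain glutamate transporter SLC1A2 in HL60, with DMSO arrays at 4.13, 4.27 and 4.28 and PMA arrays at 4.57, 4.68 and 5.67. The groups did not overlap, with 1 PMA array well above the other two, and SLC1A2 rose by 0.74 ± 0.25 (adjusted p = 0.0382). The call was lost in 7 of 26 alternative settings, among them those without PMA replicate 3 or any one of the DMSO replicates (adjusted p up to 0.472 over all settings).

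**Figure D2:**
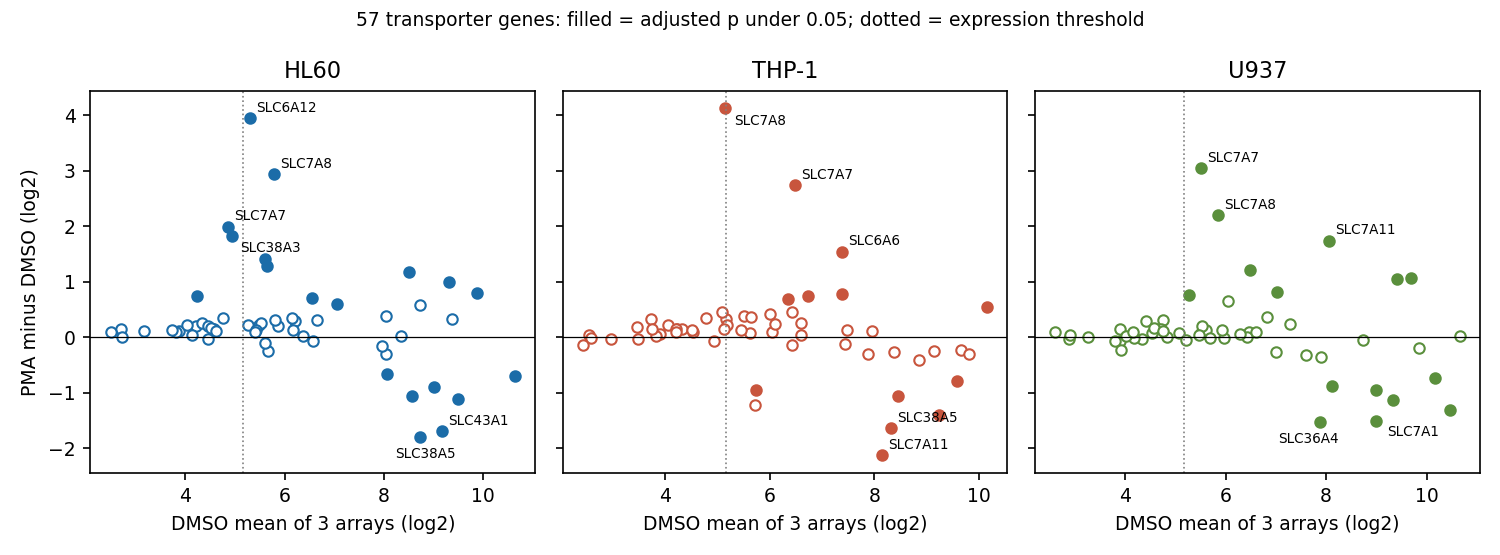
Change with PMA (PMA minus DMSO, log2) against the DMSO mean of 3 arrays (log2) for the 57 transporter genes, with 1 panel per line. Filled points have an adjusted p under 0.05, and the dotted line is the expression threshold of 5.17. Members left of the line lie close to 0 apart from SLC7A7, SLC38A3 and SLC1A2 in HL60 and SLC7A8 in THP-1.

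Among the light chains, SLC7A8 (LAT2), which exchanges neutral amino acids, had the largest change of any member in THP-1. Its HL60 arrays read 5.59, 5.94 and 5.81 with DMSO and 8.33, 8.79 and 9.02 with PMA. Its THP-1 arrays read 5.19, 5.12 and 5.15 with DMSO and 9.43, 9.19 and 9.24 with PMA. Its U937 arrays read 6.06, 5.69 and 5.79 with DMSO and 8.40, 7.36 and 8.42 with PMA. The groups were far apart in each line. The DMSO mean lay just below the threshold in THP-1 and above it in the other two. It rose by 2.93 ± 0.24 in HL60 (7.65 fold, adjusted p = 6.18e-08), by 4.13 ± 0.24 in THP-1 (at least 17.3 fold with DMSO arrays below the threshold set to it, adjusted p = 3.1e-09) and by 2.21 ± 0.24 in U937 (4.62 fold, adjusted p = 4.67e-06). The rise in THP-1 exceeded that in U937 by 1.93 ± 0.35 (adjusted p = 0.00213) and the difference of HL60 minus THP-1 was -1.20 ± 0.35 (adjusted p = 0.0405). The latter difference was lost in 12 of 27 alternative settings.

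SLC7A7 (y+LAT1) exports arginine and lysine in exchange for neutral amino acids, and its loss causes lysinuric protein intolerance, a disease with a macrophage defect. In HL60 it read 5.16, 4.77 and 4.62 with DMSO and 7.23, 6.44 and 6.87 with PMA. In THP-1 it read 6.42, 6.74 and 6.27 and then 9.72, 9.41 and 8.54, and in U937 5.92, 5.53 and 5.09 and then 8.91, 8.37 and 8.39. No PMA array came within 1 log2 unit of a DMSO array of its line. SLC7A7 rose by 2.00 ± 0.30 in HL60, 2.75 ± 0.30 in THP-1 and 3.04 ± 0.30 in U937 (adjusted p = 5.54e-05, 2.61e-06 and 1.17e-06). The difference between HL60 and U937 was not called without a replicate block and was called with it (-1.05, adjusted p = 0.0168).

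The other light chains of the large neutral and cationic exchangers moved down where they moved at all. SLC7A5 (LAT1), which brings leucine into growing cells, read 8.93, 9.34 and 8.77 with DMSO and 7.93, 8.60 and 7.83 with PMA in HL60, with no overlap. It fell by 0.89 ± 0.25 there (adjusted p = 0.0142), a call lost without HL60 DMSO replicate 2, PMA replicate 1 or PMA replicate 3 (adjusted p up to 0.0868). In U937 it read 10.10, 9.91 and 10.47 and then 9.27, 9.01 and 10.00, so that the highest PMA array lay within the DMSO range. The fall there was by 0.74 ± 0.25 (adjusted p = 0.0446), and the call was lost in 16 of 27 alternative settings, among them quantile normalization (adjusted p = 0.116). SLC7A6 (y+LAT2), a close relative of SLC7A7, fell by 1.05 ± 0.23 in HL60 and by 0.87 ± 0.23 in U937 (adjusted p = 0.00228 and 0.0104), and its change in THP-1 was -0.12 ± 0.23. The U937 call was lost without DMSO replicate 1 (adjusted p = 0.0553). Its neighbour SLC7A6OS was called in no line, with changes from -0.35 to -0.16. SLC7A10, a small neutral exchanger of brain, was expressed in all groups and not called, with changes from 0.09 to 0.32. These gene values average over unequal probe sets. Of its 14 probe sets, 1 rose by at least 1 log2 unit in HL60 (3.42) and 1 in THP-1 (4.26). The highest change in U937 was 0.72. Exon usage was tested on 9 of the 14.

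SLC7A11 (xCT), the cystine and glutamate exchanger that supplies cysteine for glutathione, changed in opposite directions in THP-1 and U937. In THP-1 it read 8.30, 8.56 and 7.55 with DMSO and 5.43, 6.60 and 6.01 with PMA. In U937 it read 8.43, 7.90 and 7.83 with DMSO and 10.46, 9.62 and 9.30 with PMA. The groups did not overlap in either line. In HL60 it read 8.88, 8.37 and 6.88 with DMSO and 9.39, 9.0 and 6.92 with PMA, and the arrays numbered 3 were low under both agents. SLC7A11 fell by 2.13 ± 0.57 in THP-1 (adjusted p = 0.0106), rose by 1.74 ± 0.57 in U937 (adjusted p = 0.0346) and changed by 0.39 ± 0.57 in HL60 (adjusted p = 0.679). The effects in THP-1 and U937 differed by -3.87 ± 0.80 (adjusted p = 0.0068). The THP-1 call was lost without DMSO replicate 2 or PMA replicate 1, and the U937 call without any one of DMSO replicates 1 to 3 or PMA replicates 1 and 2 (adjusted p up to 0.0595 and 0.158), while the difference between the lines was called in every alternative setting.

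Of the cationic amino acid transporters, SLC7A1 (CAT1) read 9.41, 9.72 and 9.38 with DMSO and 8.26, 8.62 and 8.27 with PMA in HL60. In THP-1 it read 9.11, 9.24 and 9.37 and then 7.72, 7.62 and 8.19, and in U937 8.87, 8.69 and 9.44 and then 7.17, 7.03 and 8.29. Every PMA array lay below every DMSO array of its line. It fell by 1.12 ± 0.28, 1.40 ± 0.28 and 1.50 ± 0.28 (adjusted p = 0.00654, 0.00135 and 0.000744), and no difference between lines was called. SLC7A2 (CAT2), the arginine carrier of activated macrophages, read 5.72, 6.02 and 5.40 with DMSO and 4.67, 4.39 and 4.40 with PMA in THP-1. These groups did not overlap, but the change of -1.23 ± 0.54 was not called (adjusted p = 0.124), and it was called with the replicate block (adjusted p = 9.4e-05). Its HL60 arrays numbered 3 stood high under both agents, at 7.09 with DMSO and 6.86 with PMA against 4.63 to 5.28 on the other HL60 arrays. SLC7A4 was expressed in all groups and not called, with changes from -0.09 to 0.13.

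**Figure D3:**
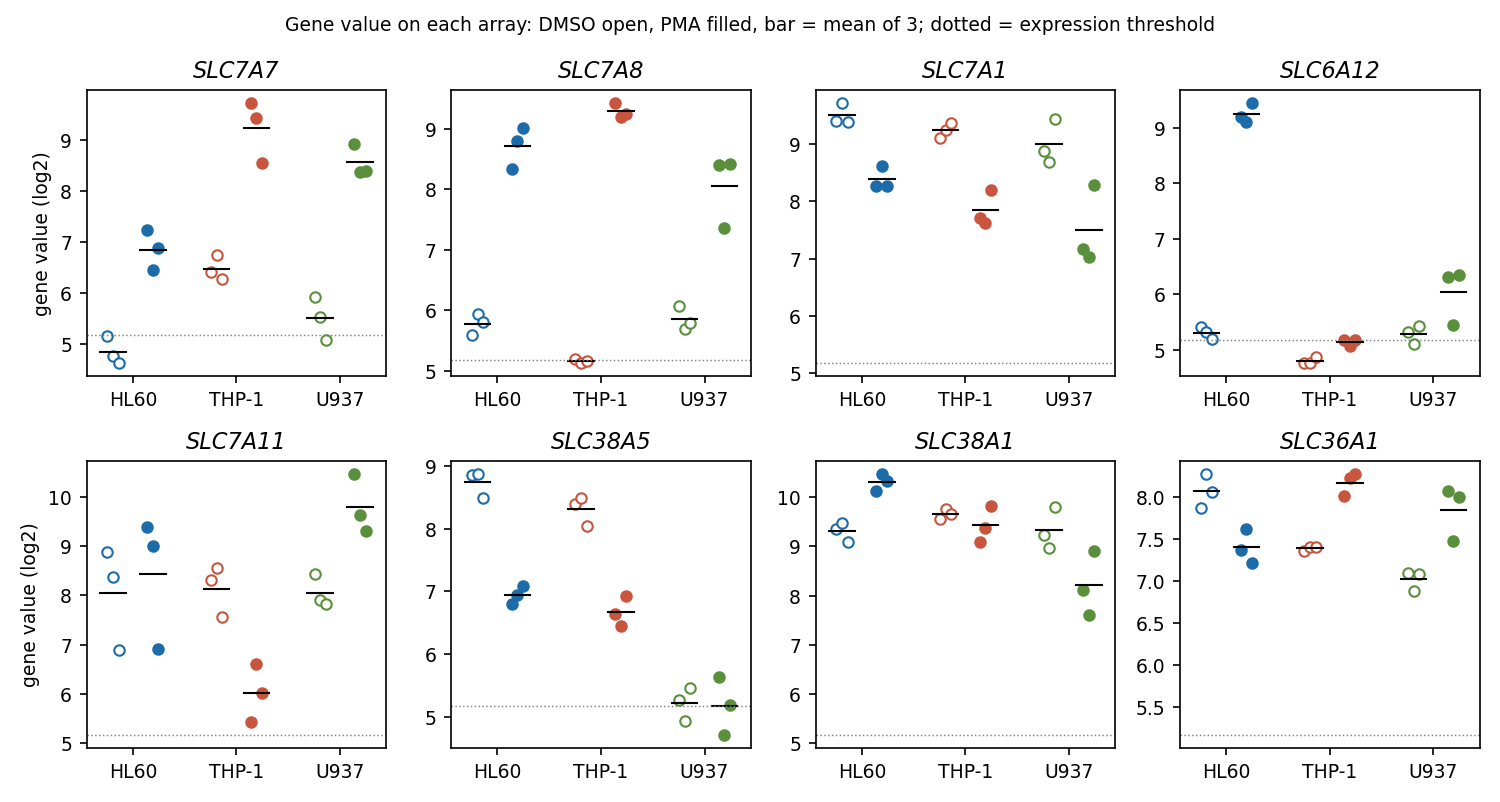
Gene value (log2) on each array for 8 transporters, with DMSO open, PMA filled, bars at the mean of 3 arrays and the dotted line at the expression threshold of 5.17. SLC7A7 and SLC7A8 are higher with PMA in all 3 lines and SLC7A1 is lower, SLC6A12 stands out in HL60, and SLC7A11, SLC38A1 and SLC36A1 move in opposite directions in different lines.

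The sodium-coupled glutamine carriers of SLC38 fell or rose by line. SLC38A5 (SNAT5), which moves glutamine, histidine and glycine, read 8.86, 8.87 and 8.49 with DMSO and 6.80, 6.94 and 7.09 with PMA in HL60, and 8.40, 8.49 and 8.04 and then 6.64, 6.45 and 6.92 in THP-1. In U937 it lay at 5.26, 4.93 and 5.46 with DMSO and 5.63, 4.72 and 5.18 with PMA, around the threshold and overlapping. It fell by 1.80 ± 0.23 in HL60 and 1.64 ± 0.23 in THP-1 (adjusted p = 8.91e-06 and 3.68e-05). These effects differed from that in U937 by -1.75 ± 0.32 and -1.59 ± 0.32 (adjusted p = 0.00166 and 0.00511), where the level before PMA was already low.

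SLC38A1 (SNAT1), a main route for glutamine, read 9.35, 9.47 and 9.09 with DMSO and 10.13, 10.47 and 10.33 with PMA in HL60. In U937 it read 9.23, 8.97 and 9.80 and then 8.12, 7.60 and 8.90. The groups did not overlap in either line and lay in opposite order. It rose by 1.01 ± 0.28 in HL60 (adjusted p = 0.0126), fell by 1.12 ± 0.28 in U937 (adjusted p = 0.00678) and changed by -0.23 ± 0.28 in THP-1. The effects in HL60 and U937 differed by 2.13 ± 0.40 (adjusted p = 0.00199). The HL60 call was lost without DMSO replicate 3 or PMA replicate 2 (adjusted p up to 0.0541).

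SLC38A3 (SNAT3), a glutamine carrier known from liver and kidney, was silent with DMSO in HL60 at 4.97, 4.86 and 4.97 and stood at 6.21, 6.73 and 7.36 with PMA. It rose by 1.84 ± 0.27 (adjusted p = 6.11e-05), with differences of 1.90 ± 0.39 from THP-1 and 1.76 ± 0.39 from U937 (adjusted p = 0.00424 and 0.00784), where changes were -0.07 and 0.08. Over probe sets above the threshold alone these differences were 1.10 and 1.08 and not called (adjusted p = 0.0771 and 0.0827). SLC38A2 (SNAT2), the carrier induced when amino acids are scarce, rose in HL60 by 0.81 ± 0.23 (adjusted p = 0.015), a call lost without HL60 DMSO replicate 3 or PMA replicate 3 (adjusted p up to 0.0692). Its effect there exceeded that in THP-1 by 1.11 ± 0.33 (adjusted p = 0.0465), a difference lost in 13 of 27 settings, and the difference from U937 (1.00, adjusted p = 0.0749) was called in 6 alternative settings, among them the replicate block (adjusted p = 0.0126). The less studied SLC38A6 rose in HL60 by 1.30 ± 0.45 (adjusted p = 0.0442, lost in 9 of 27 settings). SLC38A7, which exports glutamine from lysosomes, rose in THP-1 by 0.68 ± 0.24 (adjusted p = 0.0479, lost in 18 of 27).

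SLC38A9, the lysosomal arginine sensor upstream of mTORC1, was expressed in all groups and not called, with changes of 0.02, 0.04 and -0.26 (SE 0.33). SLC38A10 was likewise expressed and not called, although its THP-1 arrays lay at 8.83, 8.80 and 8.95 with DMSO and 8.42, 8.31 and 8.64 with PMA without overlap. Its change of -0.40 ± 0.17 there had an adjusted p of 0.112, and of 0.0399 with the replicate block.

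In the SLC1 family, the glutamine and neutral amino acid exchanger SLC1A5 (ASCT2) read 9.78, 9.62 and 9.31 with DMSO and 8.95, 8.73 and 8.68 with PMA in THP-1, and 10.59, 10.52 and 10.30 and then 9.34, 8.82 and 9.34 in U937. In HL60 it read 9.51, 9.46 and 9.18 and then 9.67, 9.86 and 9.62, so that PMA arrays lay above there and below in the other lines. It fell by 0.78 ± 0.18 in THP-1 and by 1.30 ± 0.18 in U937 (adjusted p = 0.00418 and 5.26e-05), and the change of 0.34 ± 0.18 in HL60 was not called (adjusted p = 0.227). The HL60 effect differed from both, by 1.12 ± 0.26 and 1.64 ± 0.26 (adjusted p = 0.0106 and 0.00048). SLC1A4 (ASCT1), which exchanges serine and alanine, rose by 1.17 ± 0.25 in HL60 and 1.06 ± 0.25 in U937 (adjusted p = 0.00182 and 0.00452), with a change of 0.11 ± 0.25 in THP-1.

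The glutamate carrier SLC1A3 (EAAT1) read 5.55, 5.66 and 5.62 with DMSO and 6.94, 7.08 and 7.07 with PMA in HL60, and 6.86, 6.97 and 6.33 and then 7.22, 7.56 and 7.65 in THP-1. Its U937 arrays read 7.67, 7.56 and 7.60 with DMSO and 7.37, 6.80 and 7.69 with PMA, and overlapped. It rose by 1.42 ± 0.21 and 0.75 ± 0.21 in HL60 and THP-1 (adjusted p = 5.95e-05 and 0.0146), and the THP-1 call was lost without THP-1 DMSO replicate 3, PMA replicate 2 or PMA replicate 3 (adjusted p up to 0.0818). The HL60 effect exceeded that in U937 by 1.74 ± 0.30 (adjusted p = 0.00102). The neuronal and kidney carrier SLC1A1 (EAAT3) fell in THP-1 by 0.94 ± 0.19 (adjusted p = 0.00163), from 5.62, 5.93 and 5.67 to 4.91, 4.75 and 4.73, and was silent in HL60 and U937. Over its probe sets above the threshold alone, the change was -0.32 and not called (adjusted p = 0.354). SLC1A6 and SLC1A7, carriers of cerebellum and retina, lay between 5.08 and 5.98 on all arrays and were not called.

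The largest change of any member in HL60 was that of SLC6A12 (BGT1), which carries betaine and GABA and is known to respond to osmotic stress. It read 5.41, 5.32 and 5.19 with DMSO and 9.20, 9.11 and 9.45 with PMA. In U937 it read 5.32, 5.10 and 5.42 and then 6.31, 5.44 and 6.35, and in THP-1 4.76, 4.75 and 4.86 and then 5.17, 5.07 and 5.17. The PMA arrays lay above the DMSO arrays in each line, with by far the widest gap in HL60. SLC6A12 rose by 3.95 ± 0.20 in HL60 (15.4 fold, adjusted p = 2.56e-10) and by 0.76 ± 0.20 in U937 (adjusted p = 0.0115, lost without U937 DMSO replicate 2 or PMA replicate 1 and in 2 other settings, adjusted p up to 0.104), and its change of 0.35 ± 0.20 in THP-1 was not called. The HL60 effect exceeded that in THP-1 by 3.60 ± 0.29 and that in U937 by 3.19 ± 0.29 (adjusted p = 4.05e-07 and 1.43e-06).

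SLC6A6, the taurine transporter, read 7.17, 7.36 and 7.61 with DMSO and 8.60, 9.01 and 9.18 with PMA in THP-1, and 9.50, 9.11 and 9.62 and then 10.45, 9.81 and 11.12 in U937. In HL60 it read 8.51, 8.96 and 8.69 and then 9.19, 9.41 and 9.34. No groups overlapped. It rose by 1.55 ± 0.26 in THP-1 and 1.05 ± 0.26 in U937 (adjusted p = 0.0003 and 0.00733). The change of 0.59 ± 0.26 in HL60 was not called (adjusted p = 0.127) and was called with the replicate block (adjusted p = 0.0107). The creatine transporter SLC6A8 rose in HL60 by 0.60 ± 0.16 (adjusted p = 0.0103), a call lost when probe sets were combined by median polish (0.34, adjusted p = 0.158), and its pseudogene SLC6A10P was not called, at 0.29 ± 0.18.

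The remaining SLC6 members above the threshold in all or some groups were not called. They are the glycine transporter SLC6A9, the proline transporter SLC6A7, the GABA transporter SLC6A11, the dopamine transporter SLC6A3 and the epithelial carriers SLC6A18, SLC6A19 and SLC6A20. Their changes ran from -0.01 to 0.45, with the highest in SLC6A19 in THP-1 (adjusted p = 0.106, and 0.0483 with the replicate block). SLC6A3 in THP-1, at 0.42 ± 0.19, was not called (adjusted p = 0.136) and was called in 5 alternative settings, among them that block (adjusted p = 0.042).

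Among the SLC36 carriers, SLC36A1 (PAT1), which exports small amino acids from lysosomes and binds the mTORC1 machinery, had DMSO arrays at 7.86, 8.26 and 8.06 and PMA arrays at 7.36, 7.62 and 7.21 in HL60. In THP-1 it read 7.35, 7.40 and 7.40 and then 8.0, 8.23 and 8.27, and in U937 7.09, 6.88 and 7.08 and then 8.07, 7.47 and 8.0. The groups did not overlap in any line, and the order in HL60 was opposite to the other two. It fell by 0.67 ± 0.18 in HL60 (adjusted p = 0.0108) and rose by 0.78 ± 0.18 in THP-1 and 0.83 ± 0.18 in U937 (adjusted p = 0.00398 and 0.00252). The HL60 effect differed from these by -1.44 ± 0.26 and -1.49 ± 0.26 (adjusted p = 0.00137 and 0.000975). The HL60 call was lost without DMSO replicate 2 or PMA replicate 3 (adjusted p up to 0.0677), and the U937 call with only the arrays compared in the fit (adjusted p = 0.066).

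SLC36A4 (PAT4), a carrier of proline and tryptophan, fell by 1.05 ± 0.24 in THP-1 and by 1.52 ± 0.24 in U937 (adjusted p = 0.00405 and 0.000186). Its change in HL60 was -0.30 ± 0.24, which differed from U937 by 1.23 ± 0.34 (adjusted p = 0.0363, lost in 10 of 27 settings). In THP-1 it read 8.55, 8.69 and 8.09 with DMSO and 7.19, 7.72 and 7.28 with PMA, and in U937 8.01, 7.93 and 7.69 and then 6.62, 5.99 and 6.44, with no overlap in either line.

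In SLC43, the 2 leucine and methionine facilitators went in opposite directions in the same lines. SLC43A1 (LAT3) read 9.19, 9.35 and 8.96 with DMSO and 7.47, 7.51 and 7.45 with PMA in HL60, and 9.10, 8.77 and 9.12 and then 7.93, 7.80 and 8.40 in U937. SLC43A2 (LAT4) read 6.35, 6.71 and 6.62 and then 7.03, 7.68 and 7.07 in HL60, and 6.39, 6.29 and 6.76 and then 7.96, 7.28 and 7.85 in U937. SLC43A1 lay lower with PMA and SLC43A2 higher, and neither overlapped. SLC43A1 fell by 1.69 ± 0.19 in HL60 and by 0.95 ± 0.19 in U937 (adjusted p = 2.5e-06 and 0.00128), and SLC43A2 rose by 0.70 ± 0.21 and 1.21 ± 0.21 (adjusted p = 0.0212 and 0.000434). In THP-1 their changes were -0.26 ± 0.19 and -0.13 ± 0.21 and not called. The THP-1 effect differed from HL60 for SLC43A1 (-1.43 ± 0.27 for HL60 minus THP-1, adjusted p = 0.00227) and from U937 for SLC43A2 (-1.34 ± 0.30 for THP-1 minus U937, adjusted p = 0.0124). The HL60 call of SLC43A2 was lost without DMSO replicate 1 or PMA replicate 2 (adjusted p up to 0.145). The purine carrier SLC43A3 fell in HL60 by 0.70 ± 0.19 and rose in THP-1 by 0.54 ± 0.19 (adjusted p = 0.0105 and 0.0489), effects that differed by -1.24 ± 0.27 (adjusted p = 0.00646), and the THP-1 call was lost in 18 of 27 settings and the HL60 call without DMSO replicate 2 (adjusted p = 0.0662).

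The effect of PMA itself differed between lines for 9 members in HL60 against THP-1, 8 in HL60 against U937 and 6 in THP-1 against U937, of 57 each, where 7.78%, 7.73% and 4.77% of all genes were called. With the replicate block these counts were 17, 13 and 9, and the shares of all genes 15.5%, 16.4% and 10.1%. Called higher in 1 line and lower in another were 4 members, SLC36A1, SLC38A1, SLC43A3 and SLC7A11, and 0.948% of all genes. The comparisons between pairs of lines share arrays and are not independent of each other.

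With DMSO alone, 7 members differed between HL60 and THP-1, 7 between HL60 and U937 and 12 between THP-1 and U937, where 16.6%, 22.9% and 26.2% of all genes were called. The widest gap was in SLC38A5, which stood 3.52 ± 0.23 higher in HL60 and 3.09 ± 0.23 higher in THP-1 than in U937 (adjusted p = 6.44e-09 and 1.48e-08). SLC1A1 stood 1.84 ± 0.19 higher in THP-1 than in U937, and the HL60 level lay below that of THP-1 (-1.87 ± 0.19). SLC6A6 stood lower in THP-1 than in U937 (-2.03 ± 0.26) and than in HL60 (1.34 ± 0.26 for HL60 minus THP-1). Whether the lines were normalized together is not stated in the sources used here, and without both U937 arrays numbered 2 the third count was 32, where 43.5% of all genes were called.

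Probe sets of a gene can change by unequal amounts, which diffSplice tests by setting each against the rest of its gene. Of 597 probe sets in 42 members, 27 were called in HL60, 17 in THP-1 and 22 in U937, with the adjusted p below 0.05 and an unequal change of 1 log2 unit or more, against 2.79%, 1.5% and 1.01% of all probe sets tested. They lay in 11, 6 and 7 members, against 17.3%, 11.6% and 8.52% of all genes tested. A probe set that sits near background cannot follow a large change of its gene, and probe-set positions were not used here. SLC7A8 and SLC7A7 had called probe sets in all 3 lines.

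SLC7A8 has 21 probe sets, described here in the order of their numbers. The 8 from 3557216 to 3557233 were higher with PMA in every line, by 2.85 to 4.65 in HL60, 4.53 to 6.28 in THP-1 and 3.29 to 4.0 in U937. Probe set 3557239 hardly moved in any line, with changes of 0.18, 0.33 and 0.26, and was called as rising less than its gene in all 3 (differences of -2.89, -3.98 and -2.20).

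In the 6 probe sets from 3557249 to 3557261 the changes were 1.46 to 3.54 in HL60, 2.04 to 4.51 in THP-1 and -0.63 to 0.65 in U937. Of the 6, 3557251 was not tested for exon usage. The other 5 were called in U937 as changing less than the rest of the gene, and 2 of them, 3557249 and 3557260, also in HL60 and in THP-1. Probe set 3557250 went from 5.63 to 9.17 in HL60 and from 5.16 to 9.43 in THP-1, and in U937 from 5.80 to 6.04. In a test of the difference between lines, added after these values were seen, this probe set was called for HL60 against U937 (2.87, adjusted p = 0.000641) and for THP-1 against U937 (2.38, adjusted p = 0.0334), and no other of the 6 was called between these lines. In that test 5 member probe sets of 597 were called for HL60 against U937 and 1 for THP-1 against U937, against 0.341% and 0.111% of all probe sets. The gene value of SLC7A8 in U937 averages over these probe sets.

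**Figure D4:**
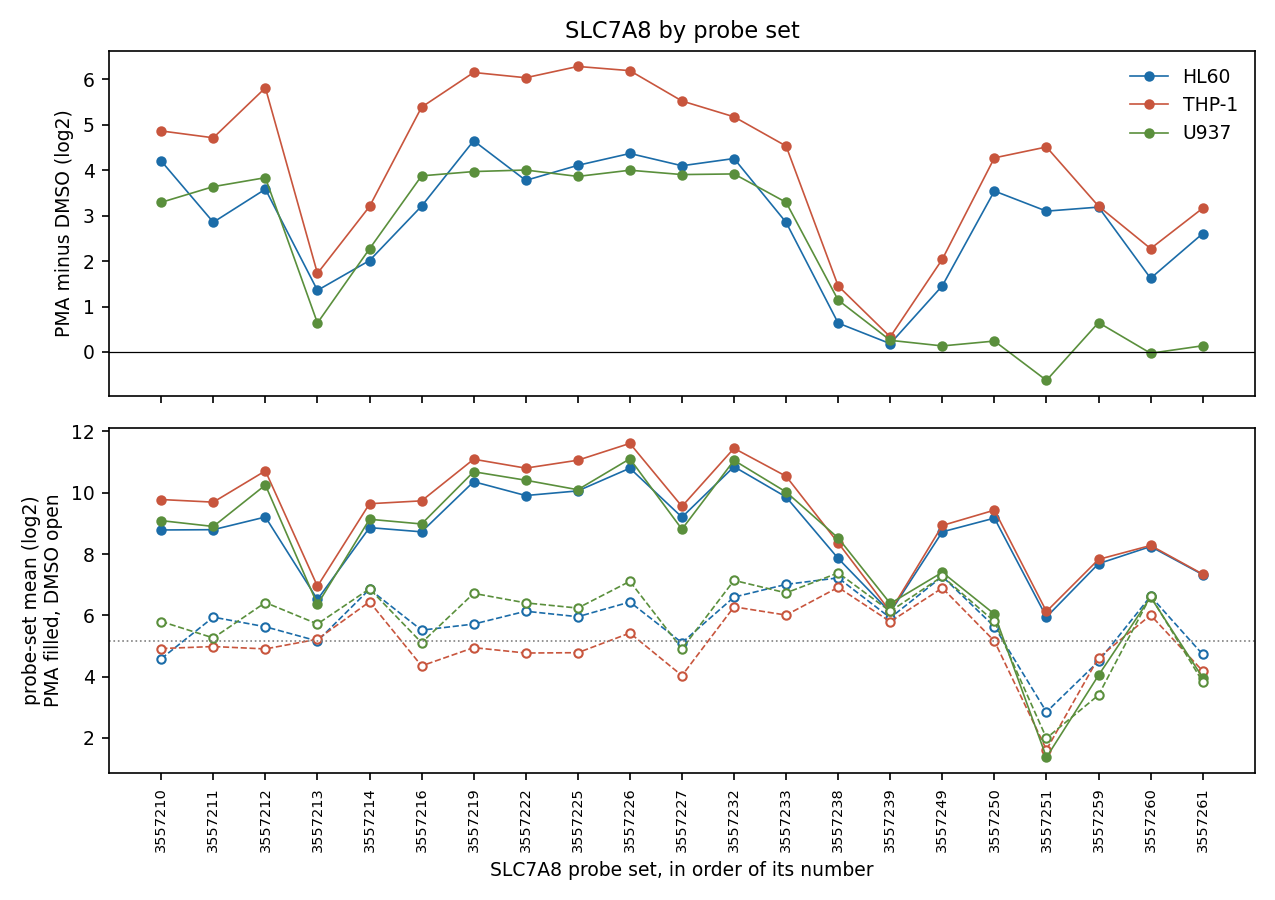
SLC7A8 by probe set, in order of probe-set number on the horizontal axis, with the change with PMA (log2) above and the mean of 3 arrays (log2) below, PMA filled and DMSO open. From 3557249 onwards the U937 points stay between -0.63 and 0.65 while those of HL60 and THP-1 lie between 1.46 and 4.51.

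In SLC7A7, probe set 3556839 changed by -0.20 in HL60, 1.19 in THP-1 and 1.32 in U937, less than the rest of the gene, with differences of -2.54, -1.89 and -2.17 (adjusted p = 0.000547, 0.0418 and 0.0146). The THP-1 and U937 calls were lost in 10 and 6 of 23 alternative settings. In HL60, SLC6A12 had 7 called probe sets, and the change was 0.61 at 3439538 and 5.32 at 3439511. In SLC38A5, 4007467 did not follow the fall of the gene, with changes of 0.47 in HL60 and 0.63 in THP-1. In SLC36A4, 3386688 changed by 0.26 in THP-1 and 0.04 in U937 while the gene fell. In SLC6A8, 3995812 was 2.33 higher with PMA in HL60, 1.97 more than the rest of the gene, and this differed from THP-1 (2.24, adjusted p = 6.29e-05).

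The other members with called probe sets had 1 or 2. These were SLC1A3, SLC38A1, SLC38A3, SLC43A1, SLC6A10P and SLC7A5 in HL60, SLC7A10 and SLC7A6OS in THP-1, and SLC43A2, SLC6A3, SLC7A6 and SLC7A6OS in U937. Differences ran from -1.98 in SLC38A3 to 2.04 in SLC43A1. The SLC7A10 probe set called in THP-1, 3858909, changed by -1.14 there and is not the one that rose by 4.26. The SLC38A3 probe set, 2622623, was lost in 4 of 23 settings, among them those without HL60 DMSO replicate 1, DMSO replicate 2 or PMA replicate 1 (-2.79 to -0.72 over all settings). Probe set 3452272 of SLC38A1 was lost in 13 of 23 and 2845933 of SLC6A3 in 12 of 23. Of the 27, 17 and 22 probe sets called in HL60, THP-1 and U937, 9, 11 and 7 were called in every setting run, and 15, 6 and 15 were lost without 1 array or another.

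Genes around the carriers were read from lists. For every list below, the shares of all genes called higher and lower were 12.3% and 10.7% in HL60. They were 9.38% and 13.2% in THP-1, and 5.5% and 16.5% in U937. Without both U937 arrays numbered 2 the U937 shares were 8.1% and 10.2%, and the lists were not counted in that setting. Of 21 other amino acid and peptide transporters measured, 8 rose and 3 fell in HL60, 2 and 5 in THP-1, and 4 and 6 in U937. The lysosomal peptide carrier SLC15A3 rose by 3.80 ± 0.22 in HL60 and 2.30 ± 0.22 in THP-1, and the cystine exporter of lysosomes CTNS by 2.81 ± 0.32 in HL60. The mitochondrial ornithine carrier SLC25A15 changed by -2.04 ± 0.22, -1.85 ± 0.22 and -1.68 ± 0.22 and so fell in each line. The median of the list was 0.21, 0.04 and 0.02.

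Of 26 genes of the ATF4 and amino acid response, 5 rose and 5 fell in HL60, 3 and 8 in THP-1, and 3 and 6 in U937. The serine synthesis enzymes PHGDH and PSAT1 fell in all 3 lines (-2.64, -2.37 and -2.08 for PHGDH and -2.40, -3.10 and -2.67 for PSAT1), while the stress factor ATF3 rose by 3.34, 2.21 and 1.66. Of 32 genes of amino acid sensing by mTORC1, 3 rose and 9 fell in HL60, 3 and 5 in THP-1, and 2 and 6 in U937. The leucine-tRNA ligase LARS1 fell in each (-1.65, -1.17 and -1.67) and the sestrin SESN1 rose by 1.81, 2.16 and 1.16.

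Of 24 genes of glutathione synthesis and NRF2 targets, 7 rose and 0 fell in HL60, 4 and 1 in THP-1, and 2 and 1 in U937. Beside SLC7A11, which fell in THP-1, the glutamate-cysteine ligase subunits went apart there: GCLC rose by 1.26 ± 0.39 and GCLM fell by 1.25 ± 0.37 (adjusted p = 0.026 and 0.018). Of 44 genes of amino acid metabolism, 3 rose and 13 fell in HL60, 3 and 14 in THP-1, and 3 and 14 in U937. ASNS, PHGDH, PSAT1, PSPH, SHMT2, PYCR1, ALDH18A1 and CTH are in this list and in the ATF4 list, so those counts are not independent. The tryptophan dioxygenase TDO2 rose by 2.16, 2.87 and 6.27 and ornithine decarboxylase ODC1 fell (-1.09, -0.96 and -1.62). The medians of the last list were -0.09, -0.48 and -0.40 beside 0.13, 0.04 and -0.07 over all genes.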

How the data were processed

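The authors deposited log2 values of core probe sets at exon level from 18 human exon arrays processed with Affymetrix Expression Console, per the submitters' processing notes. Neither its version nor the normalization and summary steps are stated in the sources used here. Values were used as deposited. Of 287329 probe sets, 261273 had 1 symbol in the platform annotation, 9155 several and 16901 none, and 2300 symbols were updated through RefSeq (GRCh38.p14). Probe sets were averaged per gene, for genes with at least 3. limma 3.58.1 in R 4.3.3 fitted 6 group means (12 residual degrees of freedom, 17.06 after moderation), with two-sided p-values adjusted by Benjamini-Hochberg over 16241 genes. SE is that of the fit. diffSplice, also of limma, tested exon usage on 175163 probe sets above the 30th percentile, in genes with at least 5.

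Same-numbered DMSO and PMA arrays of a line deviated together (correlation of deviations 0.79, 0.48 and 0.58 in HL60, 0.40, 0.64 and 0.65 in THP-1, 0.45, 0.29 and 0.52 in U937). Arrays of different numbers gave -0.65 to 0.44. THP-1 DMSO 1 went further with PMA 2 (0.44) than with PMA 1, and U937 DMSO 2 with PMA 1 (0.33) than with PMA 2. The labels state no pairing, and for these arrays the data leave it uncertain. The main fit used no pairing. With the replicate block, which pairs arrays by number, 34.3%, 34.8% and 33.2% of all genes were called in HL60, THP-1 and U937 (23%, 22.6% and 22% without it). Members, gene lists and tests were chosen with earlier results of these data known. Every member may be named, genes of the lists from the largest changes among those called. The scripts were tested on simulated data. The alternatives were quantile normalization, centring, median polish, filters on low probe sets and genes, a minimum of 1 probe set, the compared arrays alone, the replicate block and leaving out arrays.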

Additional observations from a re-analysis of the deposited data

Results flagged for a closer look

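The PMA effect differed between lines, by limma's adjusted p over all genes, for the following members, given as the difference in log2 units.

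HL60 minus THP-1 was 1.05 for SLC1A1, 1.12 for SLC1A5, -1.44 for SLC36A1, 1.11 for SLC38A2 and 1.90 for SLC38A3. It was -1.43 for SLC43A1, -1.24 for SLC43A3, 3.60 for SLC6A12 and -1.20 for SLC7A8.

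HL60 minus U937 was 1.74 for SLC1A3, 1.64 for SLC1A5, -1.49 for SLC36A1, 1.23 for SLC36A4 and 2.13 for SLC38A1. It was 1.76 for SLC38A3, -1.75 for SLC38A5 and 3.19 for SLC6A12.

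THP-1 minus U937 was -1.09 for SLC1A1, 1.08 for SLC1A3, -1.59 for SLC38A5, -1.34 for SLC43A2, -3.87 for SLC7A11 and 1.93 for SLC7A8. The difference for SLC1A3 was lost in 21 of 27 alternative settings and that for SLC1A1 in 9 of 26, against 7 of 26 for SLC1A1 in HL60 minus THP-1. With DMSO, SLC1A1 was silent in HL60 and U937 (means 3.87 and 3.90), and SLC38A5 stood near the threshold in U937 (5.22). A fall in those lines could hardly be seen, which limits what these differences say about PMA.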

How the results depend on the processing

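No called member changed direction under any alternative run. Members higher in THP-1 numbered 12 with quantile normalization, with arrays centred on their medians and without both U937 arrays numbered 2, where 16.1%, 16.8% and 14% of all genes were higher against 9.38% as reported, and members higher in U937 numbered 13 with centring (2346 of all 16241 genes against 894). Effects differing between HL60 and THP-1 numbered 14 with quantile normalization, 14 with centring, 15 with only the arrays compared, 17 with the replicate block and 14 without both U937 arrays numbered 2, and between HL60 and U937 13 with the replicate block. The shares of all genes in these settings were 14.3%, 13.3%, 12.6%, 15.5%, 12.8% and 16.4%. With DMSO, members differing between HL60 and THP-1 numbered 16 with quantile normalization, 16 with centring, 13 with only the arrays compared and 16 without both U937 arrays numbered 2 (25.8%, 27.2%, 22% and 24.9% of all genes). Between HL60 and U937 they numbered 11 with quantile normalization, with centring and without both U937 arrays numbered 2 (23.6%, 24.8% and 28.9%), and between THP-1 and U937 32 without both U937 arrays (43.5%). With the 40th percentile (5.93) as threshold, 24 members were expressed in HL60 with DMSO, against 37 at the 30th. The share of all genes at the 40th is not given here. The split depends on the threshold in every line. The means of SLC1A7, SLC6A11 and SLC7A4, for instance, lay between these thresholds in all 6 groups. Leaving out each array in turn gave 8 to 15 higher and 4 to 7 lower in HL60, 4 to 12 and 5 to 7 in THP-1, and 6 to 9 and 5 to 8 in U937, where the shares of all genes ran from 10.2% to 17.1% and 8.21% to 12.9%, from 7.2% to 13.5% and 8.45% to 16.9%, and from 4.13% to 11.7% and 11% to 20.7%. It gave 6 to 14, 7 to 9 and 4 to 8 differing effects (HL60 and THP-1, HL60 and U937, THP-1 and U937), 6 to 15, 6 to 10 and 8 to 27 with DMSO (all genes, 5.55% to 12.9%, 5.46% to 12% and 3.45% to 7.3%, and with DMSO 12% to 24.3%, 15.5% to 29.7% and 18.1% to 41.1%), and 18 to 33, 12 to 20 and 14 to 22 called probe sets in HL60, THP-1 and U937. For the called probe sets, the shares of all probe sets without each array were not computed, so these counts have no background beside them. The replicate block changed no PMA call beyond those named beside the members. It added effect differences for SLC1A4, SLC38A1, SLC43A2, SLC6A6, SLC7A11, SLC7A2, SLC7A5 and SLC7A6 (HL60 and THP-1), SLC38A2, SLC43A1, SLC43A3, SLC7A11 and SLC7A7 (HL60 and U937), and SLC38A1, SLC43A1 and SLC7A2 (THP-1 and U937). The causes of these shifts were not tested. Array number limits precision: the median SE was 0.226 for a PMA effect.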
